A study of Mus musculus with 8 samples.

Results

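Ankle joints of mice with a human TNF transgene (hTNF) were compared between 3 arrays labelled null for sphingosine kinase 1 (Sphk1) and 3 arrays labelled normal for it. These arrays were chosen by their titles and make up 6 of the 8 arrays of the series. The other 2, from wild-type joints, entered the model only to help estimate the spread. The platform annotation assigns 34945 of the 45101 probe sets to a single gene, and 20770 of these were bright enough to be tested, among 24115 tested in all. With the brightest tested probe set standing for each gene, 12362 genes were compared.

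All animals were 5-month-old adults. Both transgenic groups carry hTNF and differ, per the labels, only in Sphk1 activity, which is normal in one and functionally null in the other. The wild-type animals have normal TNF and normal Sphk1 activity. The strain, the promoter of the transgene and the part of Sphk1 that was inactivated are not given in the sources used here. Each label speaks of the ankle joint of 1 mouse, which the sex-linked genes given below put in doubt for some arrays. No label says whether litters or RNA preparations were separate. The p-values therefore measure how far these arrays spread, and part of that spread may be technical. A value is the log2 expression of a probe set on 1 array. A difference is the mean of the arrays labelled null minus the mean of the normal arrays, on the log2 scale, given ± its standard error (SE).

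Sphk1 phosphorylates sphingosine to sphingosine 1-phosphate (S1P), a lipid that cells export and that acts on a family of G protein-coupled receptors. Its relative Sphk2 makes the same lipid, and the phosphatase Sgpp1 and the lyase Sgpl1 remove it. TNF signals through NF-kB and drives the cytokines, chemokines, matrix proteases and bone resorption of inflammatory arthritis, and mice that overexpress human TNF are used as a model of that disease. The comparison addresses whether joints driven by TNF differ in expression when Sphk1 is inactive.

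Only Sphk1 itself and BC018473, a long non-coding RNA gene close to it on chromosome 11, passed the adjusted test, and both were higher on the arrays labelled null. Among the 12 measured genes on the same side of Sphk1 and nearest to it, 6 had an unadjusted p under 0.05. No inflammatory gene passed. Differences were positive in 25 of 28 TNF and NF-kB genes, 19 of 24 cytokines and receptors and 20 of 26 chemokines. Among interferon-stimulated genes 13 of 30 were positive, and among all genes 5498 of 12362. The cytokine gene Il1b differed by 1.04 ± 0.23 and the signalling inhibitor Socs3 by 0.72 ± 0.16. The interleukin 6 receptor Il6ra differed by -0.69 ± 0.18 in its brightest probe set and 0.07 in its other tested one. With the brightest probe set standing for each gene, the largest negative difference was that of the immunoglobulin alpha chain gene Igha. Some dimmer probe sets of other genes had larger ones. Genes of muscle and fat had mostly negative differences, none of which passed. A joint holds many tissues, and in whole-joint RNA fewer cells of a type and less RNA per cell cannot be told apart.

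Limma called 2 of the 12362 genes at an adjusted p under 0.05 (0.0162%), both higher and 0 lower (0%), which are 0.00829% of the 24115 probe sets tested. At an unadjusted limma p under 0.05 there were 775 genes (6.27%), of which 295 were higher (2.39%) and 480 lower (3.88%). The groups did not overlap, meaning that every array of a group lay above every array of the other, in 1238 genes (10%), of which 631 were higher (5.1%) and 607 lower (4.91%). Over all probe sets, named or not, the shares were 7.61% at that unadjusted p (2.65% higher and 4.96% lower) and 11.2% without overlap (5.34% higher and 5.85% lower). The balance of directions depended on the fit: of the probe sets at that p, 640 were higher and 1195 lower, against 1867 and 649 with the actin signal, a measure of RNA quality given below, as a covariate, 968 and 547 with the same measure on GAPDH, and 610 and 546 without null 2. The shares over genes are the background against which the counts below are read. A gene counted below as higher or lower within a list had an unadjusted limma p under 0.05, unless another test is named. The 95% interval of the difference lay within 1 log2 of no difference for 11883 of the genes (96.1%), so larger differences are outside the intervals of most genes. The plot of the difference against the p-value shows Sphk1 and BC018473 apart from all others.

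**Figure D1:**
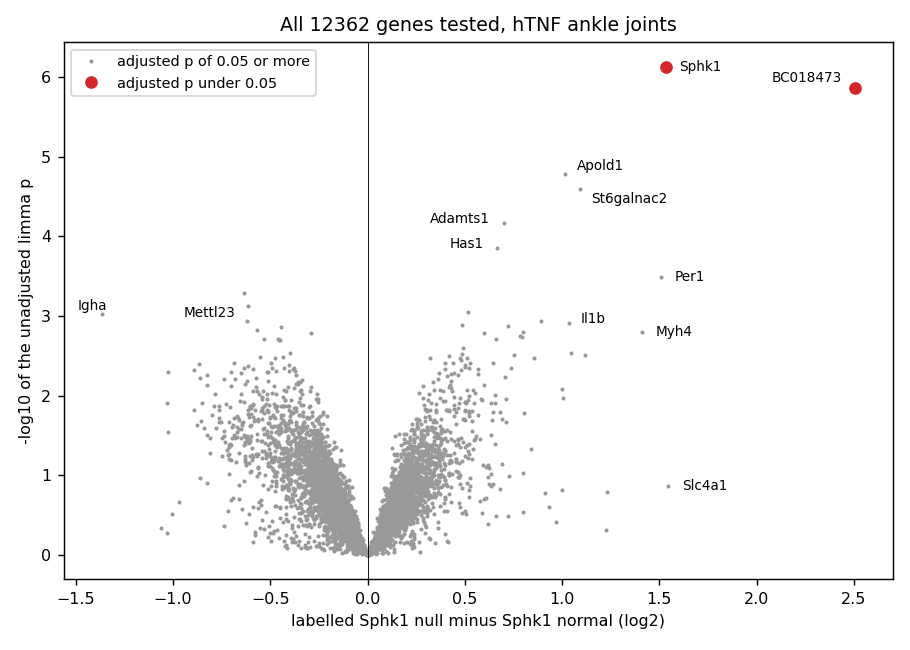
Difference between the hTNF groups (x axis, log2, arrays labelled Sphk1 null minus Sphk1 normal) against -log10 of the unadjusted limma p (y axis) for 12362 genes, each a point. The 2 red points, Sphk1 and BC018473, are the genes with an adjusted p under 0.05.

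The arrays were close to each other overall. Over the tested probe sets, arrays of the normal group correlated at 0.965 to 0.985, those labelled null at 0.962 to 0.985, and arrays of different groups at 0.95 to 0.99. The first principal component of the 6 arrays held 46.5% of the variance and did not separate the groups. Array medians lay between 6.84 and 6.89. Joint tissue genes were bright, with the bone and connective tissue collagen Col1a1 at 14.05 to 14.40 and the osteoclast protease Ctsk at 13.28 to 13.63. Array null 1 had both Xist (11.19), made from the inactive X chromosome, and the Y-linked Eif2s3y (9.14), and normal 1 had Xist at 13.05 with Eif2s3y at 6.60. Wild-type 2 was like normal 1, with Xist at 13.09 and Eif2s3y at 6.91, so 3 arrays had both signals. Both signals on 1 array are at odds with a label of 1 mouse, and whether RNA was pooled or mixed is not stated. Normal 2 had Xist at 7.29 and Eif2s3y at 8.75, as in a male. The other 3 transgenic arrays had Eif2s3y at 3.46 to 3.81 and Xist at 12.89 to 13.16, as in females. Sex thus differed between arrays and was not balanced between the groups. The 3' minus 5' difference of the actin control probe sets, a measure of RNA quality called the actin signal below, read 0.60, 0.47 and 0.57 on the normal arrays and 0.53, 0.74 and 0.67 on those labelled null. The same measure on the GAPDH control probe sets, the GAPDH signal, read 0.22, 0.19 and 0.23 on the normal arrays and 0.26, 0.32 and 0.35 on those labelled null. The GAPDH signal thus separated the groups, while in the actin signal null 1 lay among the normal arrays. A fit with the GAPDH signal as a covariate can therefore hardly tell group and RNA quality apart. In that fit the SE of the Sphk1 difference was 0.18, against 0.13 without it. The mean of 30 skin genes ranged from 6.47 to 10.49 on the normal arrays and from 6.75 to 9.22 on those labelled null.

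Sphk1, the targeted gene, read 8.63, 8.65 and 8.28 on normal 1, 2 and 3 and 10.22, 9.94 and 10.00 on null 1, 2 and 3. Every array labelled null lay above every normal array, and the wild-type arrays, at 7.25 and 7.16, lay below both groups. The difference was 1.53 ± 0.13 (95% interval 1.24 to 1.83; limma adjusted p = 0.0164). The level thus goes against a plain reading of the label, and since the position of the probes relative to the inactivated part is not given, it does not check the label. All directions below rest on the arrays as labelled. Another Sphk1 probe set was dim on every array, at 6.33 to 6.74 in the transgenic groups, and differed by -0.11 (limma adjusted p = 0.904 in a fit without the filter on dim probe sets). The difference stayed between 1.41 and 1.60 when 1 array at a time was left out. Its adjusted p then ran from 0.0328 without null 2 to 0.19 without null 3, and exceeded 0.05 in the other 7 cases, namely without either wild-type array, any normal array, null 1 or null 3. With the GAPDH signal as a covariate the difference was 1.70 (limma adjusted p = 0.108).

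BC018473 read 5.04, 5.15 and 5.13 on the normal arrays, which is below the median of the table (6.87), and 7.91, 7.05 and 7.88 on those labelled null. Wild-type joints read 5.31 and 5.15, so the gene was below the median of the table on 5 arrays and above it on the 3 labelled null. It passed the filter on dim probe sets only through the arrays labelled null, where it is high. It rose by 2.51 ± 0.23 (95% interval 1.99 to 3.02; limma adjusted p = 0.0164), and without the filter its limma adjusted p was 0.0117. Because the normal arrays were so dim, the size depends on the background: with an offset of 32 added before taking log2, the difference was 1.78 (limma adjusted p = 0.036). Another probe set of BC018473, dim on every array (4.27 to 4.69 in the transgenic groups), differed by 0.05. Leaving out 1 array at a time gave differences from 2.36 without null 1 to 2.79 without null 2. The adjusted p was 0.00128 without null 2, 0.0572 without wild-type 2, 0.0576 without wild-type 1 and 0.0822 to 0.19 without any other array. With the GAPDH covariate it differed by 2.66 (limma adjusted p = 0.113).

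**Figure D2:**
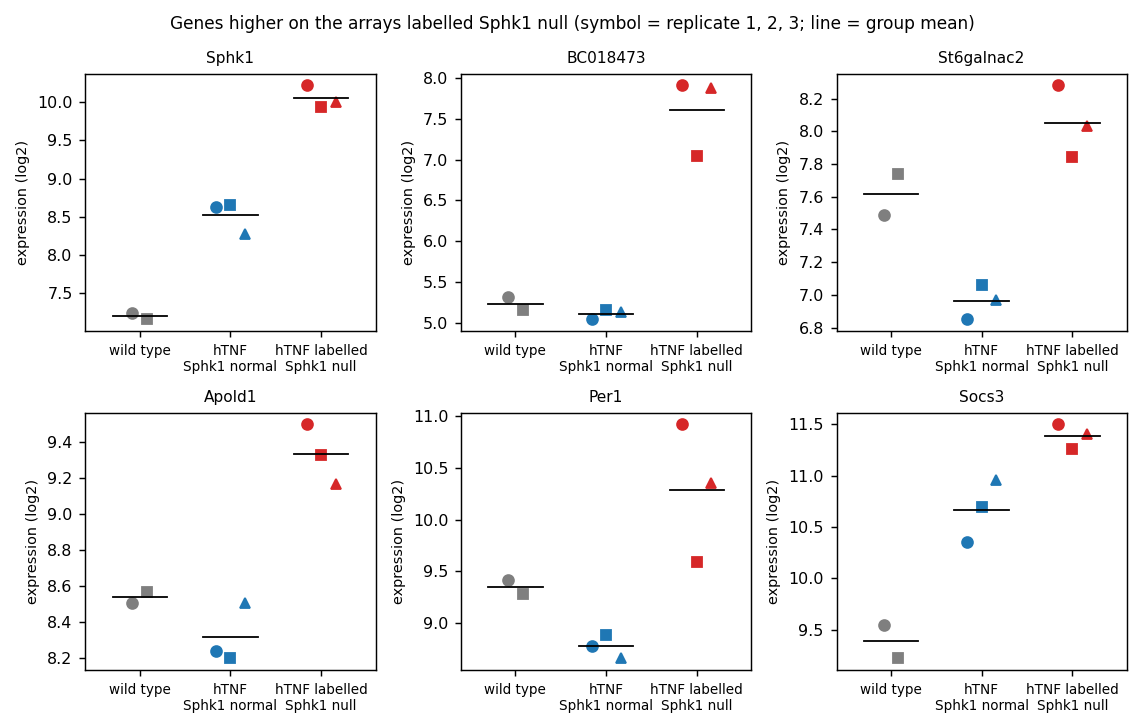
Expression (y axis, log2) of 6 genes on each array of the wild-type, hTNF Sphk1 normal and hTNF labelled Sphk1 null groups (x axis), with a symbol for each replicate and a line at the group mean. In all 6 genes the 3 arrays labelled null lie above the 3 normal arrays, and in BC018473 the wild-type and normal arrays lie together between 5.04 and 5.31.

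The genes around Sphk1 were examined because BC018473 is its neighbour. In the order of measured genes along chromosome 11 in the GRCm38.p6 gene table, BC018473 is the 7th gene on the distal side of Sphk1, the side away from the centromere. Of the 12 nearest distal genes, 4 were higher and 2 lower at an unadjusted limma p under 0.05, which is 50% of them against 6.27% of all genes, and the groups did not overlap in 7 (58.3%, against 10%). Of the next 12 distal genes, 3 were higher (25%), and of the 75 beyond them 5 had such a p (6.67%). On the proximal side the counts were 0 of the nearest 12, 3 of the next 12 (25%) and 50 of the 925 beyond (5.41%). Chromosome 11 without Sphk1 had 67 of 1048 genes (6.39%), and the other 18 autosomes 4.17 to 7.63% of theirs. The rank of BC018473 was known when the windows were set, so these counts describe the region and test nothing.

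St6galnac2, which encodes a sialyltransferase, lies next to BC018473. It read 6.85, 7.06 and 6.97 on the normal arrays and 8.28, 7.84 and 8.03 on those labelled null. The groups were wholly apart, the wild-type arrays (7.49 and 7.74) fell between them, and the difference was 1.09 ± 0.14 (limma adjusted p = 0.125). On the other side of BC018473 lies the related sialyltransferase gene St6galnac1, at 7.12, 6.93 and 7.13 against 7.34, 7.74 and 7.68 (0.53 ± 0.14; limma adjusted p = 0.554). The next gene, Mxra7, was lower, at 10.38, 10.31 and 10.33 against 10.13, 9.80 and 9.97 (-0.37 ± 0.10). Mettl23, a methyltransferase gene, was lower on every array labelled null as well. It read 9.43, 9.57 and 9.44 on the normal arrays and 9.11, 8.59 and 8.88 on those labelled null (-0.62 ± 0.13; limma adjusted p = 0.426). The splicing factor gene Srsf2 was the sixth, higher by 0.23 ± 0.09, while its other 3 tested probe sets differed by -0.14 to 0.71.

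The remaining 6 of the 12 nearest distal genes, Ube2o, Rhbdf2, Cygb, Prcd, Snhg16 and Jmjd6, had differences from -0.21 to 0.14. Rhbdf2, which encodes the iRhom protein that brings the TNF sheddase Adam17 to the cell surface, was higher by 0.13 (95% interval -0.11 to 0.36). The 12 nearest proximal genes, from Prpsap1 to Unc13d, ranged from -0.33 in Exoc7 to 0.32 in Trim65, and none had an unadjusted p under 0.05. Chosen after their values were seen, Sec14l1 (0.24 ± 0.10), Tmc6 (0.32 ± 0.11) and Syngr2 (0.24 ± 0.09) are the 3 higher genes of the next distal window. In the next proximal one, Smim5 (-0.63 ± 0.12) and H3f3b (-0.64 ± 0.24) were lower and Grb2 (0.64 ± 0.17) higher. Socs3, described below, lies just beyond the distal windows, as the 25th distal gene.

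The distal count of 6 was 5 to 7 of 12 under 22 of the 23 alternative fits, including each array left out in turn, and 3 with the GAPDH covariate, while the share of all genes ran from 2.53% without normal 1 to 18.5% without null 1. The count of the nearest proximal window was 0 or 1 in these fits, except for 4 with the actin covariate and 2 with the GAPDH covariate. The count of the next distal window was less stable, at 0 without normal 1 and with array weights, and 4 with the actin covariate. The sizes and signs along the gene order are drawn in the plot of genes beside Sphk1.

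**Figure D3:**
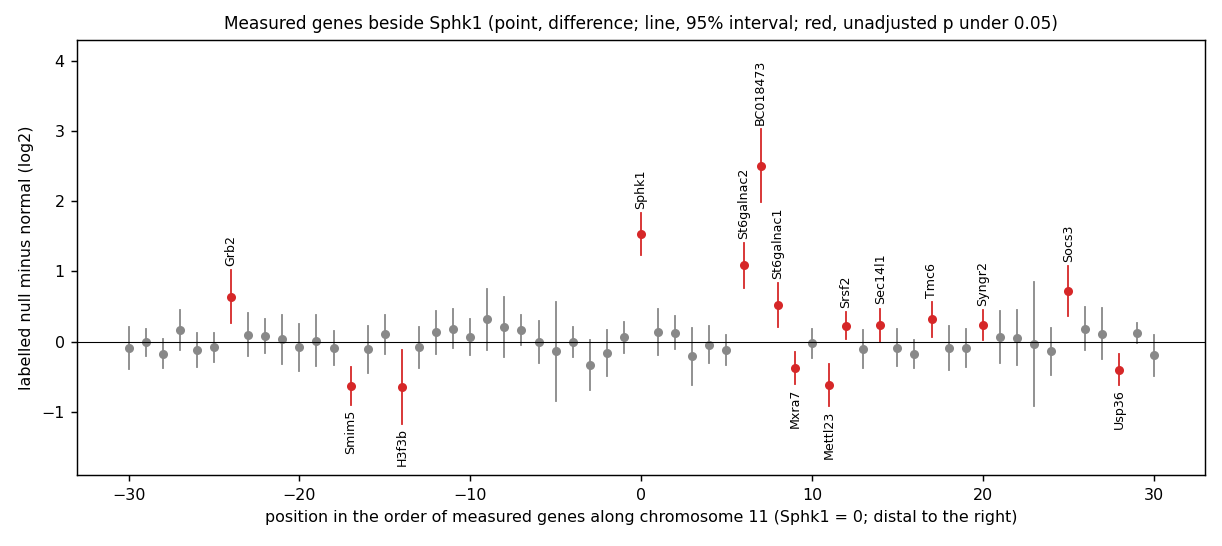
Difference (y axis, log2, arrays labelled Sphk1 null minus Sphk1 normal; point, with its 95% interval as a line) of the measured genes to each side of Sphk1, by their place in the gene order of chromosome 11 (x axis, Sphk1 at 0, distal to the right). Red marks an unadjusted limma p under 0.05. Tall positive points stand at Sphk1, St6galnac2 and BC018473, with Mxra7 and Mettl23 below 0 beside them, while the nearest genes to the left lie close to 0.

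Promoter sequences are shown for Sphk1 and for 3 genes of the higher group described next, as the 250 bases before the start site nearest the 5' end in RefSeq (GRCm38.p6). BC018473 is named only. The 12 higher genes with the smallest p-values whose groups did not overlap were matched to the RefSeq table, and 9 had an entry. Both strands were searched for a cAMP response element (TGACGTCA), a glucocorticoid response element (GNACANNNTGTNC), an E-box (CACGTG) and an NF-kB site (GGGANNNNCC), and matches are in capitals. Each sequence shown holds at most 1 match, so none overlap. The windows are chr11:116530850-116531099 on the plus strand for Sphk1, chr17:17855189-17855438 on the minus strand for Has1, chr11:69098699-69098948 on the plus strand for Per1 and chr11:117969367-117969616 on the minus strand for Socs3, each printed 5' to 3'.
Sphk1: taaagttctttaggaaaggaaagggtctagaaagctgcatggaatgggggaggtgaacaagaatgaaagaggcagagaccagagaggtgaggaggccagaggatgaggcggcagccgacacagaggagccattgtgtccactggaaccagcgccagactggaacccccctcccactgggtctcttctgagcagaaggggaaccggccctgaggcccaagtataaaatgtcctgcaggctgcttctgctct
Has1: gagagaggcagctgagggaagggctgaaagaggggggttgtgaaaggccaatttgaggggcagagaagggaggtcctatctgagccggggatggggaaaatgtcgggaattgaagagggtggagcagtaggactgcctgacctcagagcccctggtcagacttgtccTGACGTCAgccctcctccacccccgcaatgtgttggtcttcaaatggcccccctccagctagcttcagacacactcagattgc
Per1: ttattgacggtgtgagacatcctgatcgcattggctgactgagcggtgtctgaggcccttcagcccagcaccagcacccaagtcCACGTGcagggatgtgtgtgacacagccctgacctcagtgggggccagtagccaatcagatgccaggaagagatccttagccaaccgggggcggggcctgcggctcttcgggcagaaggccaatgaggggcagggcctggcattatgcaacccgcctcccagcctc
Socs3: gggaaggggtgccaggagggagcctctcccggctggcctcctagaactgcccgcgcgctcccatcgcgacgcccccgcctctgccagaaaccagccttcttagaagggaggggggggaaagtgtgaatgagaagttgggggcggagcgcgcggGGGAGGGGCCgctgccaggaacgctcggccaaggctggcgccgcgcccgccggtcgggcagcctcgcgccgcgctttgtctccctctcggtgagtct
The Sphk1 window shown holds none of these letters. Has1 has the cAMP response element, with its first base at -83 from the start site, Per1 an E-box and Socs3 an NF-kB site. The 9 genes have 19 start-site windows in the table, of which Sgk1 has 6 and Sphk1 has 5. Of these windows, 1 held the cAMP response element, 1 the glucocorticoid response element (Sgk1), 4 an E-box (2 of them other windows of Sphk1, and 1 each of Per1 and Sgk1) and 2 an NF-kB site (Apold1 and Socs3). Among 32851 mouse promoter windows of this length, 1.55%, 0.387%, 6.02% and 17.6% hold these motifs. Windows of 1 gene can overlap, so they are not independent. A match describes the letters only.

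The higher genes with the smallest p-values after Sphk1 and BC018473 include several that respond quickly to hormones, cytokines or stress. Apold1, an endothelial gene induced early by such signals, read 8.24, 8.20 and 8.51 on the normal arrays and 9.50, 9.33 and 9.17 on those labelled null. The groups were apart by more than the spread within either, and the wild-type arrays (8.51 and 8.57) stood with the normal ones. The difference was 1.02 ± 0.12 (95% interval 0.74 to 1.30; limma adjusted p = 0.125). The clock gene Per1, which glucocorticoids and cAMP also induce, read 8.78, 8.89 and 8.66 against 10.92, 9.59 and 10.35. All arrays labelled null were higher, but they spread widely, and the wild-type arrays (9.42 and 9.28) lay above the normal ones. Its difference was 1.51 ± 0.27 (limma adjusted p = 0.348). Per1 passed the adjusted test without null 2, its lowest array in that group, with a difference of 1.86 (limma adjusted p = 0.0328), and with the actin covariate, with 1.95 (0.0485).

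Adamts1, a secreted protease that cuts proteoglycans, read 8.19, 8.09 and 8.13 on the normal arrays and 8.89, 8.74 and 8.88 on those labelled null (0.70 ± 0.10; limma adjusted p = 0.232). Has1, a hyaluronan synthase of synovial fibroblasts, read 8.87, 8.87 and 9.02 against 9.75, 9.51 and 9.50 (0.67 ± 0.11; limma adjusted p = 0.317). Within each gene the groups were tight and apart, and the wild-type arrays (8.84 and 8.63 for Adamts1, 9.64 and 9.51 for Has1) were at the level of the arrays labelled null. The nuclear receptor gene Nr4a2 was higher by 0.89 ± 0.19, with 9.0, 8.18 and 8.53 on the arrays labelled null and 7.53 to 7.86 on the normal ones. Its other 5 probe sets differed by 0.03 to 0.77, so the size of its difference depends on the probe set. Sgk1, a kinase induced by corticosteroids (0.49 ± 0.11), and Gsr, the glutathione reductase (0.52 ± 0.11), were also apart between the groups, with limma adjusted p of 0.449 and 0.409.

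Of the 12 lower genes chosen by the same rule, Igha, the heavy chain of immunoglobulin A, had the largest difference. It read 12.69, 12.11 and 12.17 on the normal arrays and 10.46, 11.28 and 11.13 on those labelled null, with wild-type joints at 11.67 and 12.66. The transgenic groups did not overlap, and of the wild-type arrays 1 lay between them and 1 among the normal arrays. The difference was -1.37 ± 0.29 (95% interval -2.01 to -0.72; limma adjusted p = 0.409), and its 3 probe sets gave -1.37 to -1.41. The joining chain gene Jchain, which plasma cells need to secrete polymeric IgA and IgM, read 11.33, 10.46 and 10.84 against 9.92, 10.21 and 9.82 (-0.89 ± 0.24; limma adjusted p = 0.558). A list of 22 measured B and plasma cell genes does not hold Igha, whose unadjusted limma p was 0.000936. Within that list Jchain was the only gene with an unadjusted p under 0.05 (4.55%, against 6.27% of all genes). The list's median difference was -0.055 against -0.02 over all genes. The count of 1 was 10 with the GAPDH covariate, 9 of them lower.

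The other lower genes differed by less than 1 log2. They were the mitochondrial amidoxime reductase Mtarc1 (-0.62, with another tested probe set at -0.03), the transcription regulator Id1 (-0.45), the fat cell gene Adig (-0.57), the thioredoxin inhibitor Txnip (-0.29), Zfp385b (-0.46), the cytochrome P450 gene Cyp2f2 (-0.53), Hexdc (-0.46), the ubiquitin ligase Mylip (-0.45), Smim5, Mettl23 and the deubiquitinase Usp36 (-0.40). Id1 showed how tight some groups were, at 9.49, 9.55 and 9.31 on the normal arrays and 9.02, 8.99 and 9.0 on those labelled null. None of the 12 passed the adjusted test, with limma adjusted p from 0.377 to 0.54. Smim5, Mettl23 and Usp36 lie within 28 measured genes of Sphk1.

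In the S1P pathway, only Sphk1 passed. Of 35 measured genes of sphingolipid metabolism and S1P receptors, 4 were higher at an unadjusted limma p under 0.05 (11.4%, against 2.39% of all genes) and 0 lower (against 3.88%), and the median difference was 0.01. Sphk1 is 1 of these 4. The count was 2 without normal 1 and with array weights, and 8 with the actin covariate. With the GAPDH covariate it was 2, of which 1 was higher and 1 lower. The S1P receptor S1pr1, which guides lymphocytes out of lymphoid organs and keeps vessels tight, read 8.89, 9.12 and 9.29 on the normal arrays and 9.46, 9.64 and 9.64 on those labelled null. All arrays labelled null lay above the normal ones and above wild type (9.17 and 9.33), with a difference of 0.48 ± 0.12 (limma adjusted p = 0.549). The glucosylceramide synthase Ugcg read 9.31, 9.42 and 9.89 against 9.94, 9.97 and 10.04 (0.44 ± 0.15), with its other 3 tested probe sets at -0.09 to 0.57, and the ceramide synthase Cers6 was higher by 0.35. Cers6 was chosen after its value was seen.

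The other genes that make, export, remove or sense S1P had smaller differences by their brightest probe sets. Sphk2, the other sphingosine kinase, read 8.66, 9.05 and 8.91 against 9.09, 8.79 and 9.0, with a difference of 0.09 (95% interval -0.20 to 0.38). The groups overlapped, and the interval leaves out a difference as large as that of Sphk1. The brightest probe set of the lyase Sgpl1 differed by 0.14 (95% interval -0.11 to 0.39), with overlapping groups. Its other tested probe set read 8.51, 8.67 and 9.15 on the normal arrays and 9.18, 9.44 and 9.33 on those labelled null, wholly apart (0.54; 0.17 to 0.91; limma adjusted p = 0.691 in a fit without the filter on dim probe sets). The phosphatase Sgpp1 differed by -0.06 (-0.41 to 0.28) and the exporter Spns2 by 0.16 (-0.10 to 0.41). Among the receptors, S1pr2 differed by 0.04 (-0.33 to 0.42), S1pr3 by -0.14 (-0.40 to 0.12; its other tested probe sets by 0.26 and 0.24) and S1pr4 by -0.12 (-0.44 to 0.20). None of these intervals reached 1 log2 from 0.

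**Figure D4:**
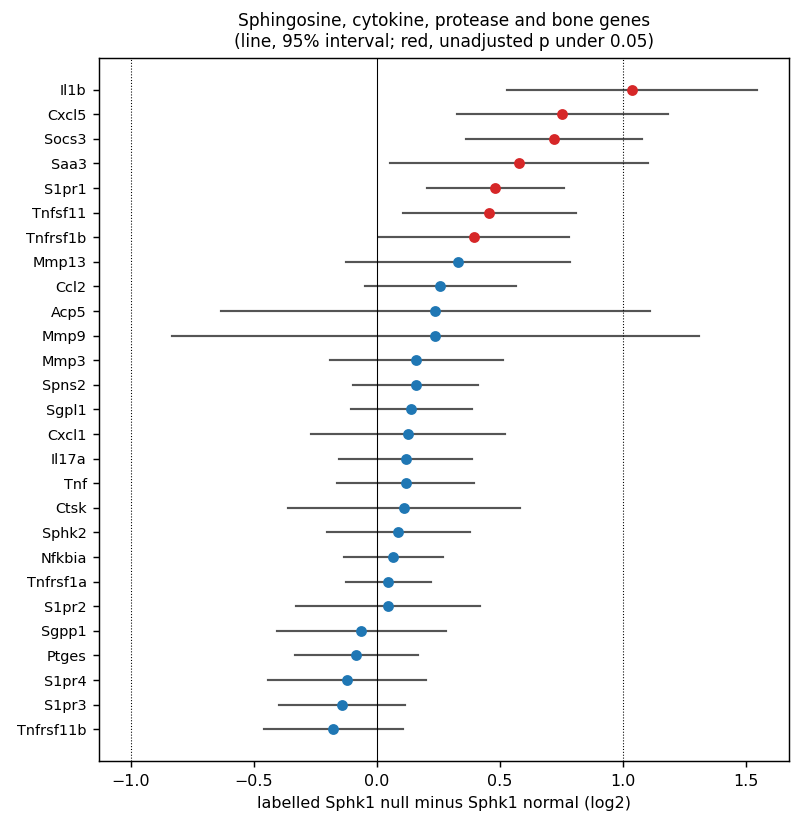
Difference (x axis, log2, arrays labelled Sphk1 null minus Sphk1 normal; point, with its 95% interval as a line) of 27 genes of the sphingosine, cytokine, protease and bone groups other than Sphk1 (y axis). Red marks an unadjusted limma p under 0.05, and dotted lines stand 1 log2 from 0. The 7 red points are all to the right, led by Il1b at 1.04, and Tnf, Il17a, Sphk2 and Mmp3 lie between 0.09 and 0.16.

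Mouse Tnf read 7.93, 8.03 and 8.14 on the normal arrays and 8.34, 8.12 and 7.99 on those labelled null, with the groups overlapping (0.12; 95% interval -0.16 to 0.40). The receptor Tnfrsf1a, which signals in most cells, differed by 0.05 (-0.13 to 0.22), and the NF-kB inhibitor Nfkbia by 0.07 (-0.13 to 0.27) in its brightest probe set. Its other tested probe sets differed by 0.05 to 0.33, and in the one with 0.33 every array labelled null (12.78 to 12.81) lay above every normal array (12.16 to 12.66). The other receptor, Tnfrsf1b, found mainly on blood and vessel cells, was higher by 0.39 ± 0.17, with normal 1 low at 10.54 and the other normal arrays at 11.22 and 11.24 against 11.32 to 11.48. Tnfaip3, the A20 protein that ends NF-kB signalling, read 10.49, 10.81 and 11.08 against 11.52, 11.19 and 11.16 (0.50 ± 0.18). Nfkb2 (0.42 ± 0.14) and the hyaluronan-binding Tnfaip6 (0.64 ± 0.21) were also apart between groups. Of 28 genes of the TNF and NF-kB pathway, 5 were higher and 0 lower at an unadjusted limma p under 0.05 (17.9%), 25 had a positive difference, and the median was 0.165 (over all genes -0.02). Among the transgenic arrays, the mean of these 28 genes was lowest on normal 1 (9.95, against 10.20 to 10.47 on the others). The count of 5 was 1 without normal 1, with array weights and without the 2 transgenic arrays that have Xist and Y-linked signal. It was 12, all higher, with the actin covariate and 4 with the GAPDH covariate.

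Il1b, the interleukin 1 cytokine of inflamed synovium, read 10.47, 10.98 and 11.40 on the normal arrays and 12.20, 12.11 and 11.65 on those labelled null. Every array labelled null was above every normal one, and wild-type joints were far lower, at 8.10 and 8.30. The difference was 1.04 ± 0.23 (95% interval 0.53 to 1.55; limma adjusted p = 0.438). Il6 was too dim to be tested, at 4.76, 5.14 and 5.19 against 7.43, 6.44 and 6.19. The groups did not overlap there either, and a fit without the filter gave 1.66 (limma adjusted p = 0.436). Il17a, the T-cell cytokine, stood near the median of the table on all arrays (6.76 to 7.07) and differed by 0.12 (-0.15 to 0.39). The interleukin 6 receptor Il6ra was lower, at 8.49, 8.47 and 7.88 against 7.81, 7.41 and 7.56 (-0.69 ± 0.18), but its other tested probe set, at 7.23 to 7.36, did not separate the arrays.

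Of 24 measured cytokines and receptors, 4 were higher and 1 lower at an unadjusted limma p under 0.05 (20.8%), and the median difference was 0.15. The count of 5 was 2 without normal 1 and with the GAPDH covariate, 7 without null 2 and 9 with the actin covariate. Of 26 chemokines, 4 were higher and 1 lower (19.2%), with a median of 0.13. That count ran from 3 without normal 1 to 9 without normal 2 (5 higher and 4 lower). The neutrophil chemokine Cxcl5 read 9.58, 10.28 and 10.06 against 10.93, 10.64 and 10.61 (0.75 ± 0.19), with the groups apart. Cxcl2, another neutrophil chemokine, read 8.91, 9.43 and 10.16 against 10.82, 10.65 and 10.03 (1.00 ± 0.30), and normal 3 lay above null 3. The macrophage chemokine Ccl3 was lower, at 6.75, 6.93 and 7.24 against 6.33, 6.59 and 6.45 (-0.52 ± 0.16). The monocyte chemokine Ccl2 (0.26; -0.05 to 0.56) and the brightest probe set of Cxcl1 (0.13; -0.27 to 0.52) had groups that overlapped. The other tested Cxcl1 probe sets differed by 0.50 and 0.43 (limma adjusted p of 0.798 for each in a fit without the filter), also with overlapping groups.

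Socs3, the feedback inhibitor of signalling by the interleukin 6 family, read 10.35, 10.70 and 10.96 on the normal arrays and 11.50, 11.26 and 11.41 on those labelled null. The groups did not overlap, wild-type joints were lowest (9.55 and 9.22), and the 3 Socs3 probe sets gave 0.66 to 0.78 (main probe set 0.72 ± 0.16; limma adjusted p = 0.449). Socs1, the inhibitor of interferon signalling, was lower, at 8.03, 8.11 and 7.90 against 7.79, 7.37 and 7.60 (-0.43 ± 0.14). Stat3 was higher by 0.24 ± 0.10 in its brightest probe set, and its other tested ones differed by -0.03 to 0.20. Of 21 JAK-STAT and SOCS genes, 3 were higher and 1 lower at that p (19%), with a median of 0.02, and 2 in all with the replicate block or the GAPDH covariate. Interferon-stimulated genes had 0 higher and 1 lower of 30 (3.33%, against 6.27% of all genes), the deubiquitinase Usp18 (-0.51 ± 0.17), and a median of -0.05. That count ran from 0 without normal 1, without normal 3 and with array weights to 5 with the GAPDH covariate. The acute-phase gene Saa3 read 11.92, 12.93 and 12.90 against 13.28, 13.05 and 13.15 (0.58 ± 0.23), and normal 1 was the low array there too. Complement genes had 3 higher and 1 lower of 17, among them the C1 protease gene C1ra (0.41 ± 0.11), and 1 of 17 in all without normal 1 or null 3 against 6 with the actin covariate.

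Among genes of prostaglandin synthesis no difference passed the adjusted test. Ptges, the inducible prostaglandin E synthase, read 8.92, 9.10 and 9.13 on the normal arrays and 9.06, 8.86 and 8.98 on those labelled null (-0.08; 95% interval -0.33 to 0.17). The cyclooxygenase gene Ptgs2, which acts before it in that route, was too dim to be tested, and its probe sets differed by 0.31 and 0.56 in the fit without the filter (limma adjusted p of 0.835 and 0.735). Of 23 measured genes of the pathway, 0 were higher and 1 was lower at an unadjusted p under 0.05 (4.35%, against 6.27% of all genes), the prostacyclin synthase Ptgis. It read 11.60, 11.07 and 11.02 against 10.93, 10.89 and 10.82, with the groups apart (-0.35 ± 0.14; limma adjusted p = 0.651). The groups did not overlap in 4 of the 23 (17.4%, against 10%), 1 higher and 3 lower. The count of 1 was 0 without null 2, with array weights and with the GAPDH covariate, and 3 without null 1. It was 6 (1 higher and 5 lower) without the 3 arrays that have Xist and Y-linked signal.

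Among matrix proteases and genes of bone resorption no difference passed the adjusted test. The stromelysin Mmp3 read 13.09, 13.48 and 13.33 against 13.46, 13.45 and 13.47 (0.16; 95% interval -0.19 to 0.51). The collagenase Mmp13 read 12.33, 12.50 and 12.09 against 12.53, 12.76 and 12.62, a narrow gap between groups (0.33; -0.13 to 0.79). Mmp9 (0.24; -0.83 to 1.31) and the osteoclast phosphatase Acp5 (0.24; -0.63 to 1.11) varied too much between arrays for their intervals to leave out 1 log2. Of 29 proteases and inhibitors, 4 were higher and 1 lower at an unadjusted limma p under 0.05 (17.2%), led by Adamts1, and 1 in all without normal 1 against 7 with the actin covariate. Adam17, the sheddase of TNF, was higher by 0.30 ± 0.12.

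Tnfsf11, the RANK ligand that drives osteoclast formation, was close to the median of the table and read 6.38, 6.51 and 6.52 on the normal arrays and 7.02, 6.79 and 6.97 on those labelled null. The groups did not overlap (0.46 ± 0.16; limma adjusted p = 0.611). Its decoy receptor Tnfrsf11b differed by -0.18 (-0.46 to 0.10) and Ctsk by 0.11 (-0.36 to 0.58). Of 18 osteoclast genes, 1 was higher, the kinase gene Src (0.57 ± 0.15), and 0 were lower (5.56%, against 6.27% of all genes). With the GAPDH covariate 1 was higher and 2 lower. Of 18 osteoclast regulators, 2 were higher and 1 lower (16.7%), and of 15 osteoblast and osteocyte genes 1 was higher and 1 lower (13.3%). The count of 3 regulators was 0 without normal 1 and with the GAPDH covariate, and 6 without normal 3 (2 higher and 4 lower). That of 2 osteoblast genes was 0 without normal 1 and 4 without normal 3 (1 higher and 3 lower). Among 22 cartilage genes 0 were higher and 1 was lower (4.55%), the collagen gene Col9a1 (-0.75 ± 0.30). Its groups overlapped, and its other tested probe set differed by 0.09. The cartilage list's median difference was -0.12, and its count of 1 was 0 without normal 1 or null 3 and 5, all lower, without normal 3 and with the replicate block.

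Fibroblast genes of the synovium went both ways, with 4 higher and 3 lower of 26 at an unadjusted limma p under 0.05 (26.9%). Beside Has1, the mucin-like Pdpn was higher by 0.20 ± 0.08. Of the 26 genes, 18 had a positive and 7 a negative difference. The lining genes Htra4 and Clic5, named for their small p-values and so not a sample of the lining, were lower. Htra4 read 10.43, 10.33 and 10.23 against 9.99, 10.07 and 9.72 (-0.40 ± 0.11). Clic5 read 9.63, 9.42 and 9.35 against 9.26, 9.01 and 8.79 (-0.45 ± 0.15). In these probe sets of both genes every array labelled null lay below every normal array, and wild-type joints were highest (11.37 and 11.38 for Htra4). Of the other tested Clic5 probe sets, 1 differed by -0.49 with the groups apart. Another differed by -0.43, and there null 1 (8.91) lay above normal 3 (8.65). The list's count of 7 was 2 without normal 1 or null 3, and at most 8. Of 13 tendon genes 2 were higher, among them Angptl7, at 8.82, 8.88 and 8.90 against 9.26, 9.34 and 9.20 (0.40 ± 0.10), and that count was 0 with the GAPDH covariate and 4 with the actin covariate.

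Of 34 macrophage and monocyte genes, 2 were higher and 0 lower at an unadjusted limma p under 0.05 (5.88%, against 6.27% of all genes), with a median difference of 0.16. That count moved with the fit, to 6 without normal 3, 5 with the replicate block and 1 with array weights. It was 8 with the GAPDH covariate (7 higher and 1 lower) and 10 with the actin covariate (9 higher and 1 lower). Those 2 were the lipopolysaccharide co-receptor Cd14, at 11.66, 12.09 and 12.21 against 12.67, 12.48 and 12.38 (0.52 ± 0.14), and the C-type lectin Clec4e (0.54 ± 0.21). The growth factor receptor Csf1r, a defining marker, differed by 0.21 (-0.02 to 0.44). Neutrophil genes had 19 of 20 positive differences and a median of 0.27, but 1 unadjusted p under 0.05 (5%), that of Trem1 (0.48 ± 0.15). With the GAPDH covariate 13 had such a p, 12 of them lower, so the direction of this list depends on that covariate. Their mean was 10.52 on null 3 and 9.23 to 9.85 on the other transgenic arrays, and the interval lay within 1 log2 for 6 of the 20. T and NK cell genes had 1 higher of 15 (6.67%, close to the 6.27% of all genes), Cd3e (0.28 ± 0.11). Antigen presentation genes had 2 higher and 1 lower of 23 (13%). Over the alternatives they had 0 to 5 in all, with 0 without null 2.

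Endothelial genes were higher in 6 of 22 at an unadjusted limma p under 0.05 (27.3%) and lower in 0, with a median difference of 0.23. The vessel adhesion molecule E-selectin, Sele, which cytokines induce, read 6.54, 7.23 and 7.23 on the normal arrays and 8.55, 7.68 and 7.91 on those labelled null (1.05 ± 0.26; limma adjusted p = 0.54). The junction protein Pecam1 read 9.15, 9.73 and 9.74 against 10.04, 9.95 and 10.15 (0.51 ± 0.16). Among the transgenic arrays, null 1 was highest and normal 1 lowest in Sele, and normal 1 was lowest in Pecam1. The count of 6 was 2 without normal 1, 12 without normal 2, and 2 without the 2 transgenic arrays with Xist and Y-linked signal. It was 13 with the actin covariate, 2 with the GAPDH covariate and 1 with array weights.

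Immediate early genes, which cells switch on soon after a stimulus, were higher in 7 of the 22 genes of their list with hypoxia genes (31.8%), and 0 were lower. The nuclear receptor gene Nr4a1 read 9.74, 9.98 and 10.04 against 11.15, 10.43 and 10.56 (0.79 ± 0.18), with wild-type joints at 11.46 and 11.16. The phosphatase gene Dusp1 read 11.65, 11.54 and 12.29 against 12.68, 12.78 and 12.24 (0.74 ± 0.20), with normal 3 above null 3. The haem oxygenase Hmox1 was higher by 0.50 ± 0.13, with the groups apart. The count of 7 was 4 without null 2, 4 with the actin covariate and 6 with the GAPDH covariate. It was 9 without normal 2, with 5 higher and 4 lower. Without the 2 transgenic arrays with Xist and Y-linked signal it was 2.

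Skeletal muscle genes were the list with the most unadjusted p-values under 0.05, yet few of its genes separated the groups. Of 36, 22 were lower and 1 higher (63.9%), with a median difference of -0.38, but the groups did not overlap in only 2 of them (5.56%, against 10% of all genes), of which 1 was lower. The list's mean read 12.30, 12.20 and 11.95 on the normal arrays and 12.14, 11.49 and 11.79 on those labelled null, so null 1 lay among the normal arrays. Actn2, a Z-disc protein, read 11.90, 11.76 and 11.48 against 11.54, 10.54 and 10.59 (-0.82 ± 0.24; limma adjusted p = 0.592). The count of 23 was 28 without null 1 and 4 without null 2. With the actin signal as a covariate 1 was higher and 0 lower, and with the GAPDH signal 0 were higher and 1 lower. The actin signal was highest on null 2 and null 3 (0.74 and 0.67), on which the list was lowest, and null 1 read 0.53.

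The fast myosin Myh4 went the other way. It read 10.84, 11.11 and 10.48 on the normal arrays and 11.44, 12.33 and 12.90 on those labelled null, against 13.88 and 14.30 in wild type. The 3 groups were all apart, with the arrays labelled null between normal and wild type (1.41 ± 0.32; limma adjusted p = 0.453). Another Myh4 probe set, dimmer, had 5.83, 6.30 and 5.90 against 6.44, 7.42 and 7.82. Null 2 and null 3, lowest in the mean of the muscle list, were highest in Myh4 among the transgenic arrays.

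Oxidative phosphorylation genes had 0 higher and 5 lower of 27 (18.5%), with a median of -0.18 and 0 whose groups were apart. The lowest p-values were those of the muscle forms of cytochrome oxidase subunits, such as Cox6a2 at 11.51, 11.52 and 11.09 against 11.17, 10.54 and 10.78 (-0.54 ± 0.18). The count of 5 was 0 without null 2, 20 without null 1 and 0 with the actin covariate. With the GAPDH covariate 1 was higher and 0 lower.

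A larger share of fat cell genes than of muscle genes separated the groups. Of 19, 7 were lower and 0 higher at an unadjusted limma p under 0.05 (36.8%), the groups did not overlap in 5 (26.3%, against 10%), and the median difference was -0.40. The hormone adiponectin, Adipoq, read 11.99, 11.30 and 11.79 on the normal arrays and 10.99, 11.25 and 10.98 on those labelled null (-0.62 ± 0.18; limma adjusted p = 0.582). The lipoprotein lipase Lpl read 12.33, 11.98 and 12.06 against 11.58, 11.79 and 11.34 (-0.55 ± 0.14), and the fat cell regulator Pparg 7.85, 7.56 and 7.48 against 7.22, 7.20 and 6.79 (-0.56 ± 0.17). In the brightest probe sets of these 3 genes every array labelled null was below every normal array, and wild-type joints were highest. Another tested Lpl probe set read 10.52, 9.99 and 10.32 against 9.74, 10.29 and 9.63, with the groups overlapping (-0.39). The list's mean was 9.58 to 9.74 on the normal arrays and 9.57, 9.28 and 9.14 on those labelled null, so null 1 stood close to the lowest normal array. The count of 7 ran from 4 without normal 1 to 11 without null 1, and was 5 with the actin covariate and 4 with the GAPDH covariate, with 0 higher in each of these fits. Of 10 Schwann cell genes 3 were lower, among them S100b, at 8.81, 8.47 and 8.37 against 8.06, 8.14 and 7.96 (-0.50 ± 0.13), and 1 was lower with the GAPDH covariate.

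**Figure D5:**
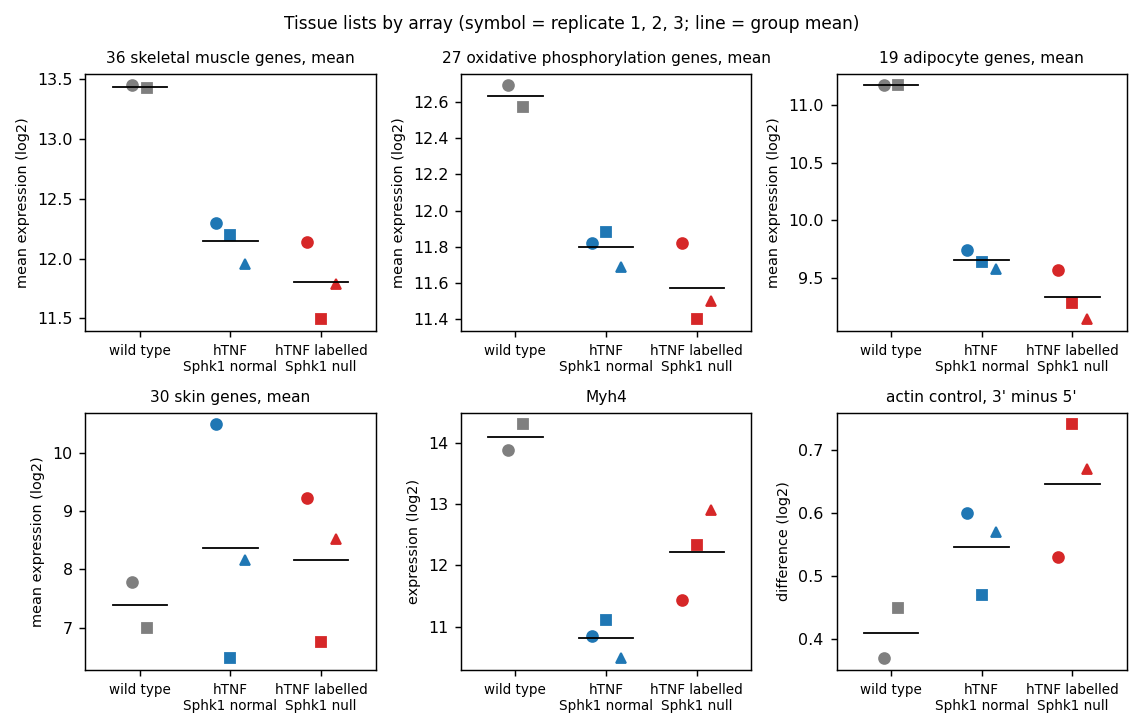
Mean expression (y axis, log2) of the muscle, oxidative phosphorylation, fat cell and skin lists, the level of Myh4 and the actin signal (3' minus 5') per array in the 3 groups (x axis), with a symbol for each replicate and a line at the group mean. Null 1 lies among the normal arrays in the muscle list, the fat cell list is 9.14 to 9.57 on the arrays labelled null against 9.58 to 9.74, and the skin list spreads from 6.47 to 10.49 within the normal group.

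Some of the largest differences came from single arrays. The red cell gene Slc4a1 read 6.72, 6.08 and 7.78 against 7.24, 7.62 and 10.36, and its difference of 1.55 ± 0.95 (limma adjusted p = 0.712) rested on null 3. Hemgn, also of red cell precursors, read 8.28 on null 3 and 4.86 to 5.69 on the other transgenic arrays. The mean of 11 erythroid genes was 8.99 on null 3 and 7.43 to 7.83 on the other transgenic arrays, and 0 of them had an unadjusted p under 0.05. On the wild-type arrays that mean was 7.73 and 8.61. With the replicate block 6 of the erythroid genes had such a p (5 higher and 1 lower), and without null 1 there were 3. Rnase2a, an eosinophil ribonuclease gene, read 12.57, 5.50 and 9.77 against 7.64, 8.88 and 8.14 (-1.06 ± 1.38). Other large negative differences were those of Zic1 (-1.03 ± 0.33), Acsl6 (-1.03 ± 0.40, with another tested probe set at 0.08) and Srrm2 (-1.03 ± 0.28). Srrm2 had another bright probe set, at 10.28 to 10.30 on the normal arrays and 10.23 to 10.50 on those labelled null, which did not differ in that way.

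The remaining lists gave no unadjusted p under 0.05, namely the 30 skin, 11 megakaryocyte, 4 mast cell and 26 proliferation genes. With the GAPDH covariate 12 proliferation genes and 7 megakaryocyte genes had one, all lower, while the skin and mast cell lists reached at most 2 and 1 under any alternative. For skin genes the absence of such a p says little, since their interval lay within 1 log2 of no difference in 5 of the 30, while for the proliferation genes it did in 25 of 26 in the fit without covariates. Of the 27 genes other than Sphk1 in the plot of sphingosine, cytokine, protease and bone genes, 21 had an interval within 1 log2. Among them 7 were higher at an unadjusted limma p under 0.05 and 0 lower, and none passed the adjusted test.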

How the data were processed

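For 8 single-colour arrays the authors deposited log2 values, 1 per probe set and array. RMA, MAS5 and Affymetrix Expression Console are named in the submitters' processing notes. Their roles, versions and the genome build are not given in the sources used here. Array medians were level, so a change in total RNA cannot be seen, and the number of arrays limits the precision (median SE 0.131 log2). Control probe sets (64) were left out, as were probe sets above the table's median (6.87) on fewer than 2 arrays. A limma 3.58.1 model (R 4.3.3) with 1 mean per group and an intensity trend was fitted to all 8 arrays (5 residual degrees of freedom), and p-values were adjusted over 24115 probe sets by Benjamini-Hochberg. The fit was tested on simulated data. Probe sets with several genes (932) or none listed (9160) were tested but not named, and 34741 matched the GRCm38.p6 gene table, used for symbols and gene order only.

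Named are the called genes, the 12 higher and 12 lower genes of smallest p whose groups do not overlap, the 6 largest differences each way, the 3 smallest p-values of each of 32 lists, a fixed set of 30 genes, and the 12 measured genes to each side of Sphk1. The members and lists were chosen with earlier results of these data known. Alternatives were the filter, an offset, quantile normalization, array weights, covariates, a replicate block and each array left out.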

Additional observations from a re-analysis of the deposited data

How the results depend on the processing

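With 3 arrays a group, 95% intervals typically reached 0.295 log2 (the median) to each side. These intervals are not adjusted for the number of probe sets. The adjusted test left much larger differences uncalled, such as 1.09 for St6galnac2 (limma adjusted p = 0.125) and 1.51 for Per1 (0.348). Of 24115 probe sets, 2 were called. The count was 6 (5 higher, 1 lower) with quantile normalization, 1 with array weights (a fit in which limma reported that its tolerance was not reached), and 0 to 3 when 1 array was left out, with 3 only without null 2. Without a wild-type array, the lone remaining one is assumed to vary like the others. Of 4 alternatives chosen after seeing the data, the actin covariate gave 5 calls, and the GAPDH covariate and leaving out the 2 transgenic arrays, or all 3, with Xist and Y-linked signal gave 0 each (with 1515, 3618 and 3770 at an unadjusted limma p under 0.05). Probe sets at an unadjusted limma p under 0.05 numbered 1835, and 2805 without the filter on dim probe sets, which tests more of them. They numbered 789 (without normal 1) to 4890 (without null 1) when 1 array was left out. The share of probe sets without overlap was 11.2%, and 15.5 to 40.5% with 1 array left out and 50.9% without those 2 or 3 arrays, since fewer arrays overlap less often. Intervals within 1 log2 were 95.7%, and 93.0 to 96.3% with 1 array left out. The Sphk1 difference was 1.41 to 1.60 with 1 array left out, 1.54 with array weights (limma adjusted p = 0.0862), 1.70 with the GAPDH covariate (0.108) and 1.51 without those 2 or 3 arrays (0.125 and 0.131). The cause of these changes was not tested.

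Deviations from the group mean correlated at 0.228, 0.054 and 0.251 between arrays with the same replicate number in both transgenic groups. Between arrays with different numbers they correlated at -0.485 to 0.37. Deviations from a mean of 3 arrays depend on each other, so these values do not settle whether the numbers pair the arrays. With the replicate number as a block, 2 probe sets were called, 1741 had an unadjusted p under 0.05, and Sphk1 differed by 1.53 (limma adjusted p = 0.0231). Of the 163 named genes besides Sphk1, 122 had the same sign under all 23 alternatives. Of these 163, BC018473, Apold1, St6galnac2 and Per1 were called under at least 1 alternative.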

Other observations

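Many of the probe sets with the smallest p-values name no single gene. Of the 50 smallest, 18 were higher and 32 lower, against 640 and 1195 of the 1835 at an unadjusted limma p under 0.05. Among the 50, 19 had no gene or several, of which 16 were lower. Of all 24115 tested probe sets, 20770 had a single gene.

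Probe sets of a single gene differed in size, in genes chosen after their values were seen. Malat1, a nuclear long non-coding RNA, had a probe set at 10.98, 11.02 and 9.25 on the normal arrays and 8.63, 6.87 and 7.70 on those labelled null, a difference of -2.68, and its brightest one differed by -0.52. Its 7 probe sets ranged from -2.68 to -0.08. Ttn, the giant muscle protein titin, had a probe set at 9.83, 10.37 and 8.64 against 7.81, 5.79 and 7.06 (-2.73), and its brightest differed by -0.49. In both genes null 2 was the lowest array of these probe sets, and null 2 also had the largest actin signal, 3' minus 5' end (0.74) and a GAPDH signal of 0.32, which was 0.35 on null 3. The part of RNA quality in these differences was not tested.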
